A study of Mus musculus with 2 samples.

Results

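The Schlafen genes are a mouse gene family named for its part in holding immune cells at rest, and many of its members are known as interferon-stimulated genes. All members share a core domain at the start of the protein. Short members, Slfn1 and Slfn2, hold little beyond it. The intermediate members, Slfn3 and Slfn4, continue into a linker region. The long members, Slfn5, Slfn8 and Slfn9, add a helicase-like part at the end. Several Schlafen proteins bind or cut transfer RNA and so limit translation, which is how the family is linked to antiviral defence. In myeloid cells the family is known for changing with differentiation and with stimulation by bacterial products.

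The 7 members, Slfn1, Slfn2, Slfn3, Slfn4, Slfn5, Slfn8 and Slfn9, were chosen by gene symbol and not by any measured value. Earlier results of these data were known at that time. They are 7 of the 55536 genes in the deposited gene tables. The data are polyA-selected RNA-seq of macrophages grown from the bone marrow of C57BL/6J mice, in 1 group of 2 libraries. The cells had received 100 ng/ml of Lipid A, a lipid of the outer membrane of Gram-negative bacteria, for 12 h, then 12 h without it, then the same dose again for 300 min. This is how the sample description reads. The treatment entry instead has lipoprotein A, and which term is right could not be settled. Sex and age are marked as not collected. The labels number the libraries as biological replicates 1 and 2, with separate biosamples and the same donor identifier, and do not say whether they came from separate animals or cultures, so the spread between them may be technical. No untreated or singly treated sample was used here, so no gene was tested for a response to the stimulus, and no p-value is given.

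The libraries held 50503159 (replicate 1) and 46342331 (replicate 2) expected counts over genes. The labelled cell type was checked on 12 macrophage markers, and 12 of 12 were at 10 TPM or more in both libraries. Here TPM is a relative transcript abundance that is divided by transcript length. Of the marker lists for other cells, 1 of 10 T and NK cell markers, 2 of 8 B cell markers, 2 of 10 neutrophil markers and 1 of 8 dendritic cell markers reached 1 TPM in both libraries. Among 8 stromal and 8 erythroid or megakaryocyte markers, 0 did. Over all protein-coding genes, 44.4% reached 1 TPM and 27.3% reached 10 TPM in both libraries. Both libraries were made from bulk RNA, so fewer cells of a type and less RNA per cell cannot be told apart.

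All 7 members were transcribed, and they covered a wide range of levels. Of the 7, 7 were at 10 TPM or more in both libraries and 4 were at 100 TPM or more. Over 22028 protein-coding genes, 27.3% reached 10 TPM in both and 5.42% reached 100 TPM. Summed over the members, replicate 1 held 2567 TPM and replicate 2 held 3049.7 TPM. In read number the members took 226789 counts, or 0.449%, of replicate 1 and 226268 counts, or 0.488%, of replicate 2. The median member stood at 139 and 153 TPM. The median protein-coding gene stood at 0.28 and 0.27 TPM, and among the 9781 protein-coding genes at 1 TPM or more in both libraries the median was 16.8 TPM in each.

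**Figure D1:**
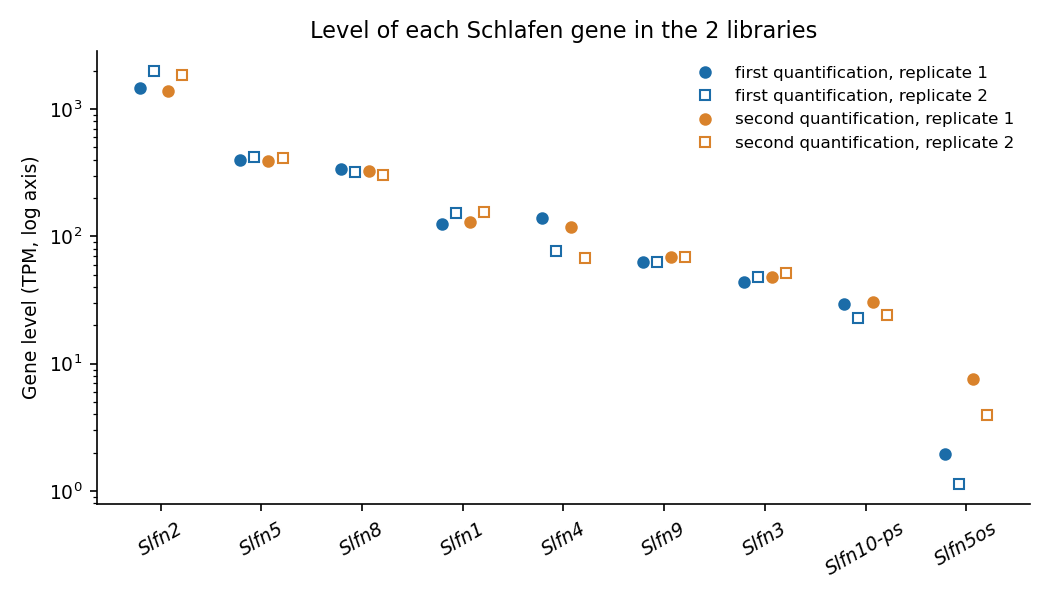
Gene level in TPM (log axis) for the 7 members, the pseudogene Slfn10-ps and the antisense gene Slfn5os. Each point is 1 library in 1 of the 2 deposited quantifications: blue for the gene table, orange for the second transcript table summed per gene. Slfn2 lies above the rest, and the Slfn4 points of replicates 1 and 2 are spread widely in both quantifications.

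Among the short members, Slfn2 led the family. Slfn2, whose loss makes resting T cells and monocytes leave quiescence, stood at 1457 TPM in replicate 1 and reached 1974 TPM in replicate 2, or 1715 ± 365 TPM (SD, n = 2). Both values were above those of 99.3% and 99.5% of the 9781 expressed protein-coding genes, and Slfn2 alone made up 56.8% and 64.7% of the family's TPM. The protein-coding genes nearest to it in level over the 2 libraries were Actg1, a cytoplasmic actin, at 1677 and 1954 TPM, and Ms4a6c, a membrane protein of myeloid cells, at 1594 and 1746 TPM. Slfn1, its short relative, was 11.6-fold lower in replicate 1 and 12.9-fold lower in replicate 2, at 125 and 153 TPM (139 ± 19.3 TPM). On the log2(TPM + 1) scale Slfn2 exceeded Slfn1 by 3.53 and 3.68. Slfn1 and Slfn2 each have 1 annotated transcript, so their levels need no split between isoforms.

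Long members came next. Slfn5, a long member with a helicase-like end, stood at 397 and 417 TPM (407 ± 14.2 TPM), above 96.2% and 96.6% of expressed protein-coding genes. Its nearest genes in level were Arf1, a small GTPase of vesicle traffic, at 401 and 422 TPM, and Cap1, an actin-binding protein, at 403 and 420.03 TPM. Slfn8 stood at 341 and 319 TPM (329.7 ± 15.6 TPM), and its lower value was still above 95.2% of expressed protein-coding genes. Slfn9 stood at 62.8 and 62.6 TPM (62.7 ± 0.17 TPM). The libraries of Slfn5, Slfn8 and Slfn9 did not overlap with each other. Slfn5 was 1.17-fold and 1.31-fold above Slfn8, and Slfn2 was 3.67-fold and 4.73-fold above Slfn5.

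Of the intermediate members, Slfn4 lay farther apart between the libraries than Slfn3. Slfn4, which is known to mark a subset of activated and immature myeloid cells, held 139 TPM in replicate 1 but 76.6 TPM in replicate 2 (108 ± 44.4 TPM). Slfn3, known from studies of T cells and gut epithelium, was the lowest member at 44.03 and 48.2 TPM (46.1 ± 2.93 TPM). Slfn4 exceeded Slfn3 by 3.16-fold in replicate 1 and 1.59-fold in replicate 2, a log2 difference of 1.64 and 0.66.

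Ranked by mean TPM the order was Slfn2, Slfn5, Slfn8, Slfn1, Slfn4, Slfn9 and Slfn3. In 5 of the 6 neighbouring pairs both libraries of the higher gene lay above both of the lower gene. The exception was Slfn1 and Slfn4: Slfn4 was above Slfn1 in replicate 1 and below it in replicate 2. By group, the short members held 61.7% and 69.7% of the family's TPM, the long members 31.2% and 26.2%, and the intermediate members 7.14% and 4.09%. Read number gives another picture because the long members have long transcripts. Slfn5 held 75260 counts in replicate 1 against 73998 for Slfn2, and 70918 against 91804 in replicate 2. As CPM, which are counts scaled to the library total and not divided by length, the libraries of Slfn2 and Slfn5 overlapped.

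The members sit together on chromosome 11 (mm10), from 82951349 to 83215154, a stretch of 263.8 kb. In order of position they are Slfn5 (82951349 to 82964840, plus strand), Slfn9 (82978390 to 82991830, minus strand), Slfn8 (83002158 to 83020810, minus strand), Slfn2 (83065112 to 83070678, plus strand), Slfn1 (83116849 to 83122670, plus strand), Slfn4 (83175186 to 83190216, plus strand) and Slfn3 (83191330 to 83215154, plus strand). The annotation places 15 other genes between or over them. Of these, 3 were at 1 TPM or more in both libraries, 2 were detected below 1 TPM and 10 were listed at 0. These counts are of the first quantification: in the second, the microRNA genes Mir7679 and Gm27598, listed at 0 in the first, had means of 17.0 and 1.78 TPM. The pseudogene Slfn10-ps, which lies beyond Slfn8 (83028130 to 83040042, minus strand), stood at 29.4 and 22.7 TPM (26.0 ± 4.79 TPM). Beside it the processed pseudogene Gm11425 stood at 30.9 and 20.3 TPM.

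The protein-coding genes named here beside the cluster were at low levels. On the left, Unc45b, a muscle chaperone, was listed at 0 and 0.01 TPM, and Nle1, a ribosome biogenesis factor, at 2.96 and 4.31 TPM. On the right Slfn14, a long Schlafen gene known from platelets and red cell precursors (83275110 to 83286726, minus strand), had 1 count in replicate 1 and 0 in replicate 2. Slfnl1, a Schlafen-like gene on chromosome 4, had 0 counts in both libraries, which allows up to 3 counts, or 0.0594 and 0.0647 CPM. Such limits and the intervals below cover counting error only.

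**Figure D2:**
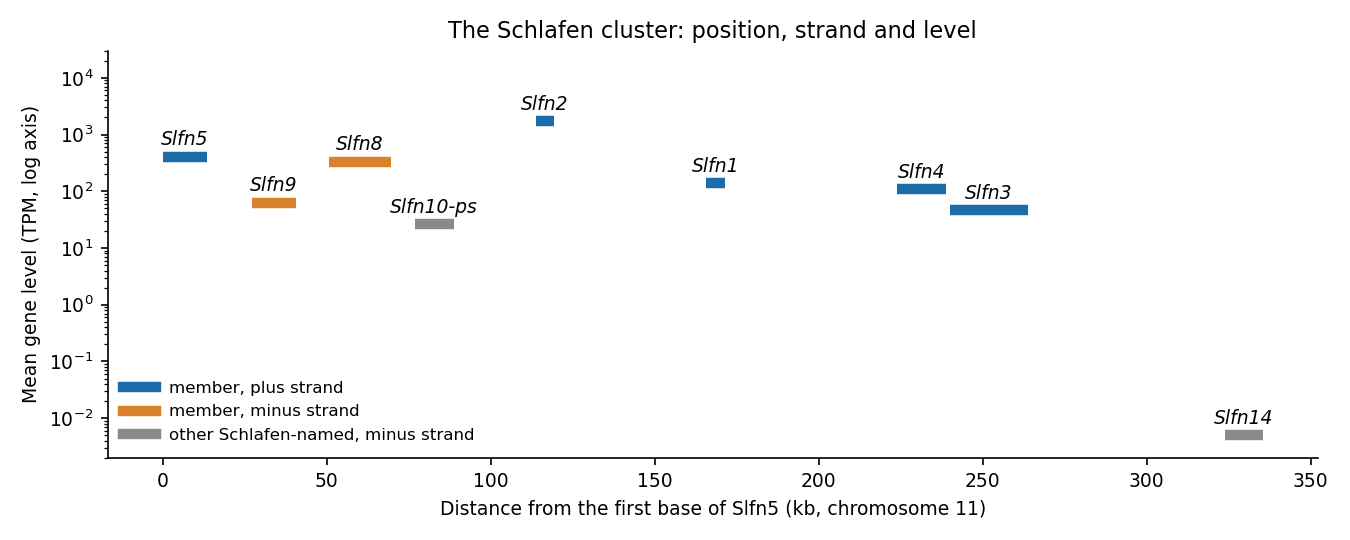
Mean gene level in TPM (log axis) against the distance from the first base of Slfn5 in kb; each bar spans 1 gene, in blue for members on the plus strand, orange for members on the minus strand and grey for Slfn10-ps and Slfn14. All 7 members lie above 40 TPM, and Slfn14, at the right edge, lies near 0.

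Antisense genes overlap the 2 highest members. Slfn5os runs opposite to Slfn5 and stood at 1.94 and 1.14 TPM. In the second deposited quantification it stood at 7.57 and 3.95 TPM. Gm20234, opposite to Slfn2, stood at 0.67 and 0.53 TPM with 11 and 8 expected counts, and at a mean of 6.27 TPM in the second quantification. The sources used here do not state how strand was treated, and reads of Slfn5os may therefore be mixed with those of Slfn5. Of all 31-base stretches in Slfn5 transcripts, 7.99% were also in Slfn5os, counting both strands. At 50 bases the Slfn5os share was 7.38%. The annotated transcripts of Slfn2 shared 50-base stretches with only 1 other gene, Slfn4, and not with Gm20234. At 31 bases some Slfn2 stretches were in 16 other genes.

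The members are close copies in part. Over the aligned coding bases of the longest coding transcripts, Slfn8 and Slfn9 were 92.7% identical over 2730 bases, and Slfn3 and Slfn4 were 92.3% identical over 1785 bases. Slfn1 and Slfn2 were 71.3% identical over 1002 bases. Slfn5 was 63.4% identical to Slfn8 and 63.6% to Slfn9. Slfn8 was nonetheless 5.42-fold and 5.09-fold above Slfn9 in TPM, a log2 difference of 2.42 and 2.33. From the coding lengths, the longest proteins have 337 residues for Slfn1, 378 for Slfn2, 602 for Slfn4, 640 for Slfn3, 884 for Slfn5 and 910 for both Slfn8 and Slfn9.

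**Figure D3:**
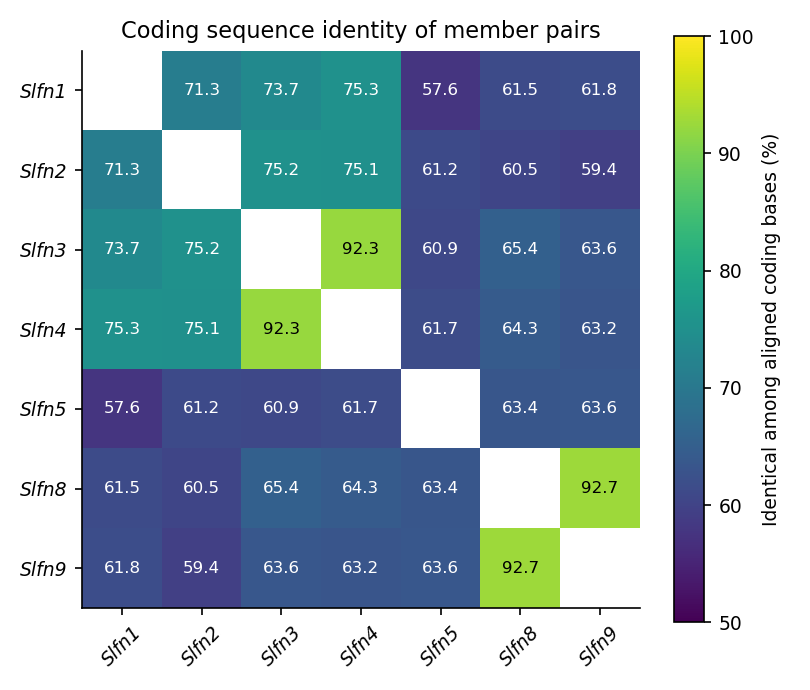
Percent of identical bases among aligned coding bases for each pair of members, with color from 50 to 100%. The pairs Slfn8 with Slfn9 (92.7%) and Slfn3 with Slfn4 (92.3%) stand out, and the short and intermediate members form a block between 71.3 and 75.3% outside that pair.

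Such likeness bears on how reads are assigned. Of all 31-base windows in the transcripts of a member, the share found in no other gene was 98.0% for Slfn1, 89.2% for Slfn2, 86.6% for Slfn5, 79.1% for Slfn4, 75.4% for Slfn9, 72.7% for Slfn8 and 69.1% for Slfn3. Slfn8 shared 19.1% of its windows with Slfn9 and 18.7% with the pseudogene Slfn10-ps. Slfn3 shared 15.1% with Slfn4 and 10.8% with Gm11427, a transcribed pseudogene downstream of it that stood at 11.2 and 8.94 TPM. Slfn2 and Slfn4, a short and an intermediate member, held 101 identical bases in a row. For windows of 75 bases the share found in no other gene was 91.8% for Slfn5, the lowest, and 93.0% for Slfn8. Slfn5 had at most 22 identical bases in a row with another member, too short for such windows. At 75 bases, 6.59% of its windows were in the antisense gene Slfn5os. At 31 bases, some Slfn5 windows were found in 3962 other genes, and some Slfn3 windows in 171. At the gene level the deposited posterior SD of the expected count was at most 5.12 counts for every member, while the lowest expected count of a member was 2578, for Slfn3 in replicate 2.

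Promoter sequences were searched for interferon-type and other motifs. Promoter windows from RefSeq (GRCm38.p6), with 250 bases before and 50 after the start site, matched all 7 members, with 2 windows for Slfn8. The interferon-type motif, written GAAANNGAAA and searched on both strands, was in the windows of 3 of 7 members, Slfn5, Slfn8 and Slfn9. It was in 3.44% of all 32851 promoter windows. With the second copy followed by C, it was in 2 of 7 members, Slfn8 and Slfn9, and in 0.819% of all windows. The segments below show the matches in capitals, 5′ to 3′ on the gene's strand, because they let the copies in Slfn8 and Slfn9 be compared with the different one in Slfn5. They cover chr11:82991841-82991900, chr11:83020824-83020883 and chr11:82951922-82951981.
Slfn9: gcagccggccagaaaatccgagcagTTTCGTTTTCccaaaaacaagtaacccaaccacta
Slfn8: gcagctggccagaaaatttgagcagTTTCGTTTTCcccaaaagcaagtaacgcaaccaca
Slfn5: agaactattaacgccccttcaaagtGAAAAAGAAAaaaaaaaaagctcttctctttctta

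In Slfn8 and Slfn9 the match is on the strand opposite to the gene and its first base lies 48 and 45 bases before the start site, or 136 bases before it in the other Slfn8 window. In Slfn5 it is on the gene's own strand, 155 bases before, within a run rich in A. When the 300-base windows were aligned, Slfn8 and Slfn9 were 84.9% identical over 292 aligned bases. The other 20 pairs of members lay between 51.9 and 64.8% of their aligned bases. Slfn2, the highest member, has no match in its window, nor do Slfn1, Slfn3 and Slfn4. That says only that these letters are not in those windows.

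For the gamma-activated, AP-1 and NF-kB type motifs, the counts among 7 members were too small to be told from the share over all windows. The gamma-activated site TTCNNNGAA was in 0 of 7 members and in 8.30% of all windows. The AP-1 motif TGANTCA was in 1 of 7, Slfn4, and in 7.81% of windows. It starts 34 bases before the Slfn4 start site. An NF-kB type motif, GGGANNNNCC, was in 1 of 7, Slfn9, and in 20.7% of windows. No match of these overlapped an interferon-type match. The short and intermediate members hold the 8 letters CTTCCTGG on the gene's strand. Counted on either strand, the letters were in these 4 of 7 members and in 4.12% of all windows. This stretch was picked after the members' windows had been read, so its count is a description of them. The segments cover chr11:83116722-83116779, chr11:83065033-83065090, chr11:83191264-83191321 and chr11:83175089-83175146, with the shared letters in capitals.
Slfn1: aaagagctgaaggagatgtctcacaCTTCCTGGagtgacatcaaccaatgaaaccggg
Slfn2: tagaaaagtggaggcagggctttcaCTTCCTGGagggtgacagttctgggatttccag
Slfn3: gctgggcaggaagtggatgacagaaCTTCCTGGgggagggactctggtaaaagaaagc
Slfn4: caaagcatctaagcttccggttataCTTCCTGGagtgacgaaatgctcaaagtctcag

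The capitals start 73, 54, 41 and 72 bases before the start sites of Slfn1, Slfn2, Slfn3 and Slfn4. These 4 genes span the family's levels, from Slfn2 at the top to Slfn3 at the bottom.

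Transcript make-up was read from 2 deposited quantifications of the same libraries. The first comes with the gene table, and the second is a separate transcript table made from the reads. At the gene level they differed little: the second was 0.863 times the first for Slfn4, the lowest ratio, and 1.09 times for Slfn9, the highest. Of 7 members, 0 were 2-fold or more apart between the quantifications, against 13.4% of the 12268 genes that reached 1 TPM in either. That background includes genes near 1 TPM, while the lowest member, Slfn3, stood at 44.03 TPM in replicate 1. With 7 members, a count of 0 cannot be told from that share. Of the 18 member transcripts that reached 1 TPM in either, 5 were 2-fold or more apart, against 22.8% of 27321 transcripts. The 5 are Slfn8-206, Slfn8-204, Slfn4-203, Slfn5-202 and Slfn9-202. The share of members is near the background share, and the values below describe these genes only. Transcript Slfn8-201, Slfn4-201, Slfn5-201, Slfn9-201 or Slfn3-201 led its gene in both quantifications, which is 5 of the 5 members with several transcripts. Of 5655 protein-coding genes with several transcripts at 10 TPM or more, 91.9% kept their leading transcript.

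The isoforms of Slfn8 were read differently by the quantifications. In Slfn8 the full coding transcripts, Slfn8-201 and Slfn8-202, held 61.9 ± 1.69% in the first quantification and 80.2 ± 1.25% in the second. They contain an internal exon of 724 bases (83004057 to 83004780) in which the long protein continues. In Slfn8-203 and Slfn8-206 this exon is left out, and the coding sequence of 1221 bases ends at 407 residues in place of 910. In the first quantification the transcripts without the exon held 34.3% of Slfn8 in replicate 1 and 37.3% in replicate 2 (35.8 ± 2.14%, n = 2). In the second they held 8.0% and 10.3% (9.17 ± 1.65%). The gap between the quantifications was thus larger than the spread between libraries. It came mostly from Slfn8-206, at 82.2 and 82.8 TPM in the first quantification and below 0.001 TPM in both libraries of the second. For Slfn8-203 the values were 34.7 and 36.1 TPM in the first and 25.8 and 31.2 TPM in the second. Slfn8-204, which ends just after the internal exon, stood at 8.14 and 5.69 TPM in the first and 35.1 and 30.7 TPM in the second.

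The sequence of these transcripts leaves little to tell them apart. Slfn8-206 is contained whole in Slfn8-203, and neither has a 31-base window of its own. Both together have 29 such windows that no other transcript holds. Slfn8-202 also has 0 windows of its own. The deposited posterior SD of the count was 415 and 449.8 counts for Slfn8-206, on expected counts of 7954 and 7328. The joints that separate both forms follow, with the exon before the joint in lower case and the exon after it in capitals, 5′ to 3′ on the gene's strand. The full form has both of the upper joints, and the short form has the last.
Slfn8-201 into the internal exon: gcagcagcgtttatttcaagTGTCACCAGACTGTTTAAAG
Slfn8-201 out of the internal exon: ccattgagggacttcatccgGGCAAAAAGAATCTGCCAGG
Slfn8-203 and Slfn8-206: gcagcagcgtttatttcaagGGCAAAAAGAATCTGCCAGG

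Reads across these joints were not analysed here, and the cause of the gap was not tested.

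**Figure D4:**
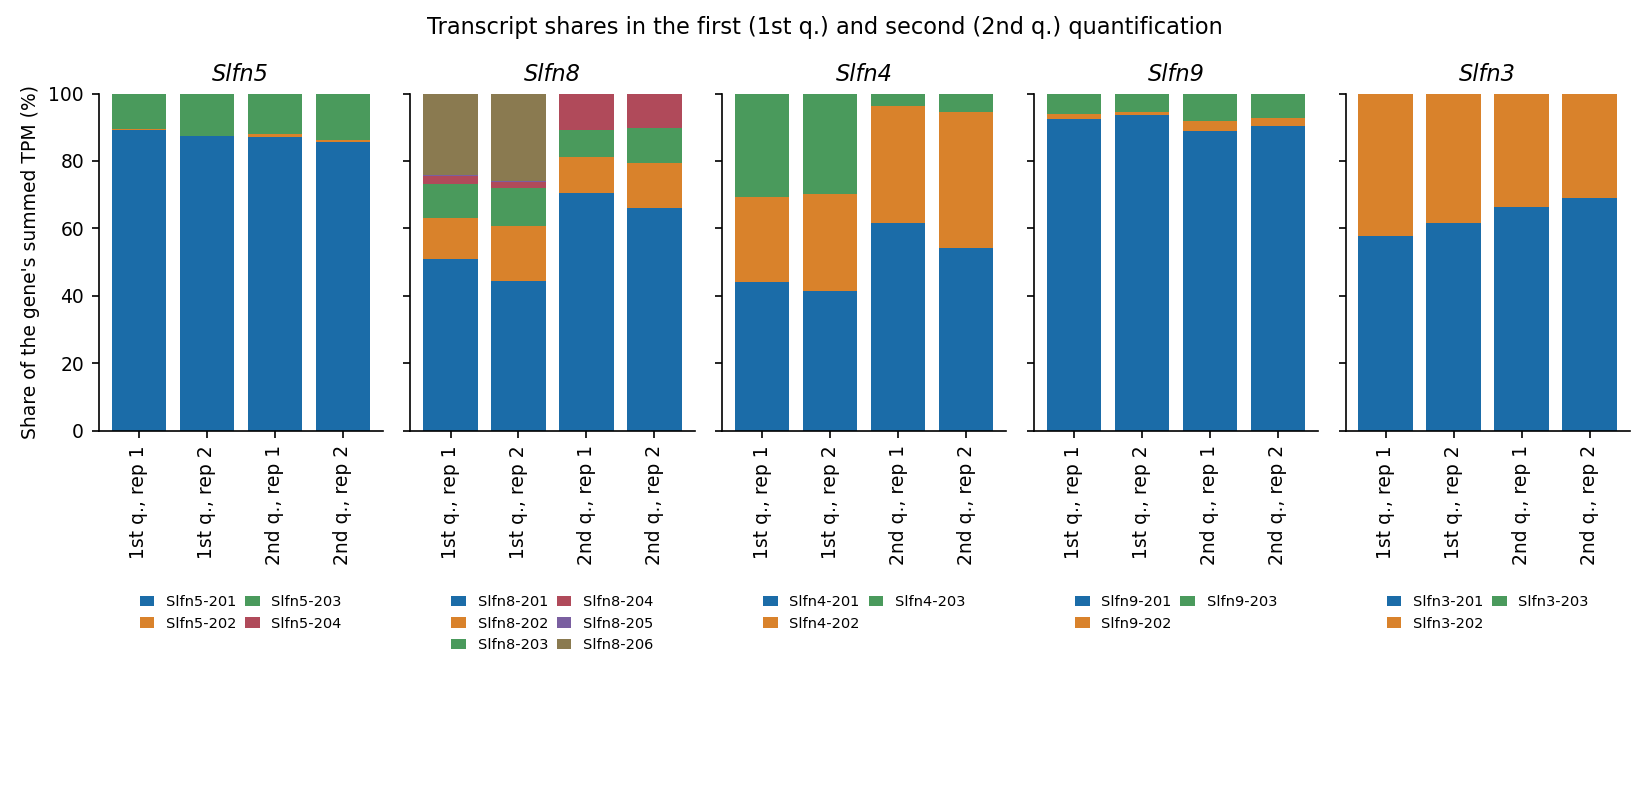
Share of each transcript in the summed TPM of its gene (%), for the 5 members with several transcripts, in each library of the first (1st q.) and second (2nd q.) quantification. Slfn8-206 and most of Slfn4-203 are seen in the first quantification and not in the second, while Slfn5, Slfn9 and Slfn3 differ less.

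In Slfn4 the gap in the full coding share was wider. Slfn4-201 and Slfn4-202 code for 602 residues, and Slfn4-203, which has 3 exons against 8 in Slfn4-201 and starts within the fourth of them, for 209. The full coding forms held 69.3% and 70.3% of Slfn4 in the first quantification (69.8 ± 0.673%) and 96.3% and 94.7% in the second (95.5 ± 1.16%). Slfn4-203 stood at 42.7 and 22.8 TPM in the first and 4.38 and 3.64 TPM in the second. The shares of Slfn5 and Slfn9 lay closer between the quantifications. Full coding transcripts held 89.4% and 87.5% of Slfn5 in the first quantification and 88.1% and 86.3% in the second, the rest being almost all Slfn5-203, which codes for 378 residues. Slfn9 had 94.1% and 94.4% in the first and 91.9% and 92.6% in the second. Slfn3 was split between Slfn3-201 (517 residues), at 57.8% and 61.6%, and Slfn3-202 (640 residues), at 42.0% and 38.2%. In the second quantification Slfn3-201 held 66.4% and 69.0%.

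The members differed in how far the libraries lay apart. On TMM-scaled counts, in which library sizes are adjusted for composition, 0 of 7 members were 2-fold or more apart, against 4.21% of 12543 genes past a filter on low counts. Slfn4 was the farthest apart. It had 15065 counts in replicate 1 and 7595 in replicate 2, a log2 ratio of replicate 2 over replicate 1 of -0.87 (95% exact counting interval -0.91 to -0.83), or 1.83-fold higher in replicate 1. Of all genes past the filter, 5.81% were as far apart or farther in either direction. That background includes genes with few counts: among genes averaging at least 100 counts, 1.95% were 2-fold or more apart. The 3 transcripts of Slfn4 were each higher in replicate 1 in both quantifications. Slfn2 was 0.43 higher in replicate 2 on the log2 scale, Slfn1 0.27 higher and Slfn3 0.11 higher. Slfn5 was at 0.03, Slfn8 at -0.13 and Slfn9 at -0.01, and for Slfn9 the sign turned to 0.02 in the second quantification. Slfn3 and Slfn4, adjacent genes that share windows of sequence, thus had ratios of opposite sign. With 2 libraries of 1 group these ratios have no replicate check.

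**Figure D5:**
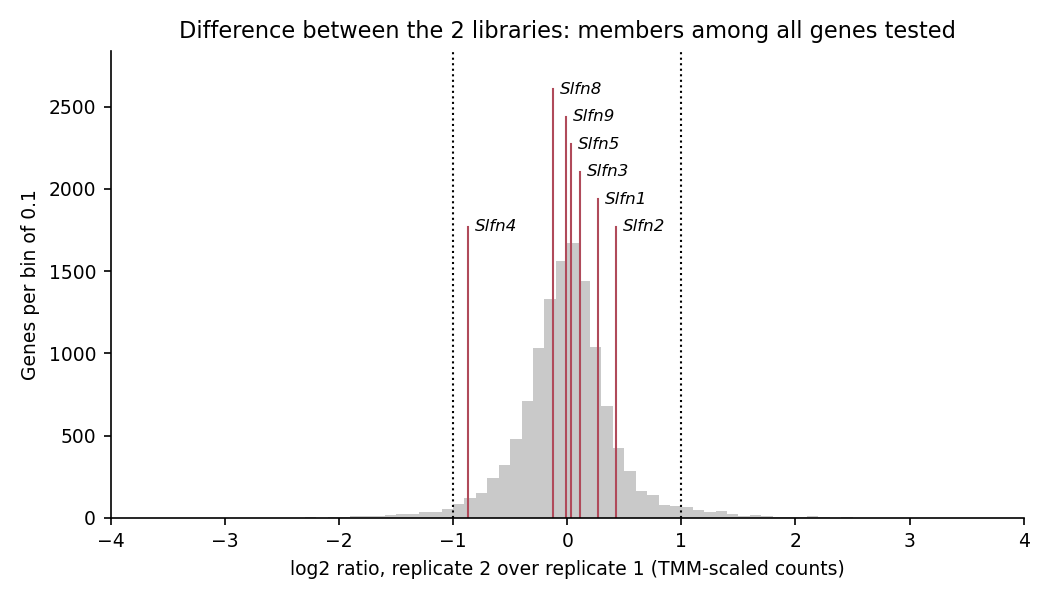
Number of genes per bin of 0.1 against the log2 ratio of replicate 2 over replicate 1, for 12543 genes past the filter, of which 2 lie outside the range drawn; red lines mark the 7 members and dotted lines the 2-fold limits. Slfn4 lies nearest to a limit, and the other members lie between -0.13 and 0.43.

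Neutrophil markers were also higher in replicate 1, as Slfn4 was. The 10 neutrophil markers summed to 67.9 TPM in replicate 1 and 4.46 TPM in replicate 2, with S100a9 at 37.9 and 2.23 TPM, S100a8 at 23.1 and 1.57 TPM and Ngp, a granule gene, at 4.96 and 0.06 TPM. Of the defining neutrophil genes, Ly6g and Retnlg were listed at 0 in both libraries, and Cxcr2 at 0.02 and 0 TPM. The 8 erythroid and megakaryocyte markers summed to 4.15 and 1.27 TPM, and the 8 dendritic cell markers to 6.28 and 3.77 TPM. Sums for T and NK cells were 45.9 and 40.7 TPM, nearly all of it Cd4. The B cell markers summed to 45.3 and 38.0 TPM, nearly all of it Cd22. The stromal markers went the other way, with sums of 2.00 and 2.46 TPM and 4 of the 4 past the filter higher in replicate 2. The part of these markers in the Slfn4 difference was not tested. The 12 macrophage markers summed to 21918 and 21828 TPM, of which Lyz2 made up 10292 and 11210 TPM. Their median was 827 TPM in the first library and 693 TPM in the second, and 3 of 12 were higher in replicate 2. Cd14, a co-receptor for lipopolysaccharide, stood at 348 and 691 TPM, a log2 ratio of 0.99, while C1qa, a complement subunit, stood at 1017 and 696 TPM, a log2 ratio of -0.55.

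Genes of the interferon pathway, which the family is known to follow, were present over a wide range of levels. Among 14 interferon-stimulated effector genes, 14 reached 100 TPM in each library and their median was 1381 TPM. Over all protein-coding genes, 27.3% reached 10 TPM and 5.42% reached 100 TPM in both libraries. Cxcl10, an interferon-induced chemokine, was the highest at 6985 and 6644 TPM, and Ifih1, a sensor of viral RNA, the lowest by the mean of both libraries, at 214 and 224 TPM. Slfn2 lay above the median of this list in both libraries (medians of 1255 and 1508 TPM), and the other 6 members lay below it. Among 13 genes of type I interferon signalling, 12 were at 10 TPM or more and 6 at 100 TPM or more, with a median of 100.3 TPM. Irf7, a transcription factor that amplifies the interferon response, was the highest at 2327 and 2096 TPM. The cytokine gene Ifnb1 was the lowest at 11.3 and 5.91 TPM.

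A further list held 15 antiviral genes that act on RNA or limit translation, as some Schlafen proteins are known to do. Of these, 15 were at 10 TPM or more and 11 at 100 TPM or more. Over all protein-coding genes the shares at these levels were 27.3% and 5.42%. Their median was 134 TPM, beside 139 TPM for the 7 members. Ifit2, an RNA-binding antiviral protein, was the highest at 2942 and 2612 TPM. Of the 14, 13 and 15 genes of these lists, 0 were 2-fold or more apart between the libraries. Among all 12543 genes past the filter the share was 4.21%. Ifit1, Ifit2 and Ifit3 are in 2 of the lists.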

How the data were processed

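PolyA RNA-seq of 2 libraries of 1 group was analysed from the authors' tables. Per the file headers, the authors deposited expected counts, TPM (scaled to a fixed total) and FPKM (scaled to length and depth) per gene and transcript, with an isoform percent (not used), a posterior SD of each count and a TPM interval (the interval was not used). A second deposited transcript table holds estimated counts and TPM, made from the reads per the README deposited with each sample, which also names mm10 and GENCODE release M21. For the aligner, the quantifiers and the strand setting, names and versions were not given in the sources used here.

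Members and lists were chosen with earlier results of these data known. Levels are deposited gene TPM; the second table was summed per gene. Expected counts were rounded, filtered with filterByExpr (12543 genes kept) and scaled with TMM in edgeR 4.0.16 (R 4.3.3), with a prior count of 0.5; DESeq2 1.42.0 gave alternative size factors. The libraries differed beyond sampling noise (chi-square of 69.8 per degree of freedom over 14305 genes) and were counted as 2. Ratios and alignments were tested on simulated data. Log2 levels used a pseudocount of 1 TPM. Windows were searched in all GENCODE M21 transcripts on both strands. Coding sequences of GENCODE M21 were aligned globally with Biopython 1.88; this replaced the planned comparison of proteins, which were not used here. Tables were handled with pandas 2.3.3 and NumPy 2.4.6 under Python 3.11.15, intervals came from SciPy 1.17.1, and figures were drawn with matplotlib 3.10.9. Named genes were the 7 members, other Schlafen-named genes, annotated genes among them, the 2 nearest protein-coding genes on each side, the highest and lowest gene of each list, the 2 genes nearest in level to the 2 highest members, and genes sharing windows with a member. Marker genes and the transcripts described were named after their values were seen. Of the genes this rule names, 2 are not reported here.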

Additional observations from a re-analysis of the deposited data

How the results depend on the processing

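No paired analysis was possible because the data hold 1 group. Counts of members at 1, 10 and 100 TPM and the count 2-fold apart between libraries kept their values within 1.5 times under each alternative run. The order of levels moved by 2 members, Slfn1 with Slfn9, in CPM and by 2, Slfn1 with Slfn4, without replicate 2, and by 0 without replicate 1. In the second quantification it was unmoved, but there Slfn1 lay apart from Slfn4 and Slfn4 overlapped Slfn9. The share of all genes 2-fold apart was 27.8% with no filter on low counts, 1.95% over genes averaging at least 100 counts and 1.43% on log2 of gene TPM plus 1. In the second quantification Slfn2 exceeded Slfn1 by 3.49 and Slfn8 exceeded Slfn9 by 2.17 on the log2 scale. The Slfn8 share without the internal exon was 9.17% and the Slfn4 full coding share 95.5% in the second quantification; these 2 results and their alternatives were chosen after seeing the data, and the cause was not tested. The Slfn4 ratio lay between -0.87 and -0.80 over 7 settings, and 6 of 7 members kept the sign of their ratio, Slfn9 being the exception. Depth limits the values of genes with few counts, such as Slfn14, Slfnl1, Unc45b, the antisense genes and the neutrophil markers in replicate 2.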
